A study of Mus musculus with 24 samples.

Results

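The question of this comparison was what duloxetine changed in the brain transcriptome of mice that also received the gut bacterium Ruminococcus flavefaciens. Duloxetine, used against depression, keeps serotonin and norepinephrine in the synaptic cleft by blocking their transporters. Of the 24 mice sequenced, 12 entered the comparison: 6 given live R. flavefaciens together with duloxetine (both treatments) and 6 given R. flavefaciens alone, chosen by their labels and no measured value. The other mice, 6 controls and 6 given duloxetine alone, entered the same fit and are used here for side-by-side values. All were male BALB/C mice (substrain OlaHsd) of 11 postnatal weeks. The bacterium was given by gavage, daily at the start and then 2 times per week, duloxetine was injected intraperitoneally every day, and mice without one or the other agent received phosphate-buffered saline in its place. The animals were group-housed, and the labels do not say what the first number of a mouse's label stands for. Poly(A) RNA of the medial prefrontal cortex (mPFC), 1 library per mouse, was sequenced.

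Norepinephrine acts in the cortex through adrenergic receptors, whose expression is known to adapt when transmitter stays in the cleft for longer. Neurons that fire switch on immediate early genes within minutes, and these encode transcription factors such as the Fos, Egr and Nr4a families and Npas4. The circadian clock is a feedback loop in which CLOCK and BMAL1 bind E-box letters (CACGTG) and drive the Per, Cry, Dbp and Tef genes, and PER and CRY proteins then repress that drive.

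The values are counts that the study divided by a size factor for each mouse (normalized counts), and whole reads could be recovered from them. The R. flavefaciens mice had 12811413 to 14775494 recovered reads (median 13943370) and the mice given both treatments 14128350 to 15607343 (median 14621655.5). The difference between groups did not pass an exact permutation test (two-sided p = 0.0714, n = 6 per group; the smallest p this design can give is 0.00216). Cortical identity was plain in every library: all 7 markers of excitatory cortical neurons were in the table, with Camk2a the most abundant at a mean of 52794 normalized counts, and their summed level was 95882 to 113780 in the R. flavefaciens mice and 97038 to 113290 with both treatments.

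Several mice stood apart. The summed level of 12 striatal markers, led by Pde10a, was 8487 in R. flavefaciens mouse 8_4 against 2701 to 3850 in the other mice of its group, and 5331 in mouse 11_4 of the combined group against 2796 to 3367 in the others. Mouse 8_4 also had 830.1 normalized counts over the 3 choroid plexus and ependyma markers in the table, led by Kl, against 35.5 to 125.2 in the rest of its group, and the other 6 of the 9 markers listed, Folr1 and Aqp1 among them, were not in the table. Oligodendrocyte markers, led by Mbp, ranged from 13517 to 50603 and from 12858 to 57451, so mice of both groups spread over most of the whole range. In R. flavefaciens mouse 9_3 long transcripts were low and short ones high: Spearman's rho across genes between the mouse's deviation and transcript length was −0.556, against −0.317 to 0.119 in the other 11 mice. Genes are not independent replicates, and these rho values only describe the libraries. In bulk tissue, fewer cells of a type and less RNA per cell cannot be told apart. Many counts below are also given with single mice left out.

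**Figure D1:**
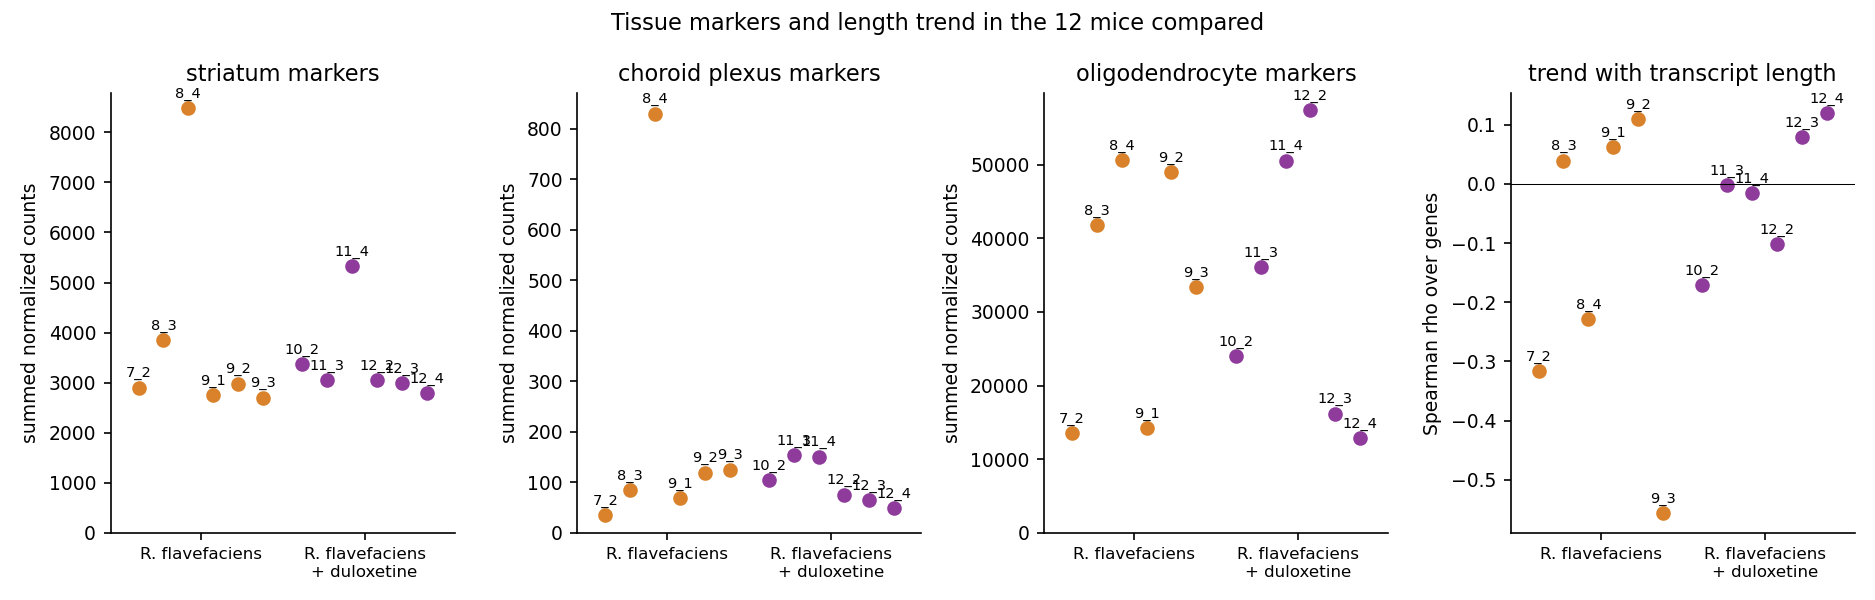
Summed normalized counts of striatum, choroid plexus and oligodendrocyte markers, and Spearman's rho across genes between a mouse's log2 deviation and transcript length, 1 point per mouse for the 6 R. flavefaciens mice and the 6 mice given both treatments. Mouse 8_4 is high in striatum (8487) and choroid plexus (830.1) markers, mouse 11_4 in striatum markers (5331), and mouse 9_3 has the lowest rho (−0.556).

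Adding duloxetine to R. flavefaciens was followed by many small changes. Of 14974 genes tested, 334 were differentially expressed (DEGs) at an adjusted p under 0.05 in limma's moderated test on log2 values, which is 2.23% of them. Of these DEGs 160 were higher (1.07% of genes tested) and 174 lower (1.16%) with both treatments, and 2944 genes had an unadjusted p under 0.05. The changes were modest: only 5 DEGs differed by more than 2-fold, and the absolute log2 fold change ran from 0.13 to 1.28. In 138 of the 334 (41.3%) the 6 mice of one group all lay on one side of the 6 of the other, while 216 of all genes tested (1.44%) separated the groups in this way. The count rests on the spread of all 4 groups: limma fitted to the 12 mice alone called 0 genes (1998 had an unadjusted p under 0.05, and the smallest adjusted p was 0.0615), while DESeq2 on recovered reads of the same 12 mice gave 220. The median SD of a gene on the log2 scale was 0.18 in the R. flavefaciens mice and 0.15 with both treatments, against 0.12 in controls and 0.13 with duloxetine alone.

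Single mice moved the count widely. Without mouse 11_3 of the combined group 47 DEGs were left, all of them among the 334, while without mouse 8_4 there were 577, of which 308 were shared, and without mouse 12_4 there were 474. It was 225 without mouse 7_2, 155 without 9_1, 178 without 9_3, 224 without 11_4, 158 without 12_2 and 190 without 12_3. Leaving out both 8_4 and 9_3 gave 461 (305 higher), and leaving out both 8_4 and 11_4 gave 349.

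Among the 15 DEGs with the smallest p in each direction, the lower side held a cell cycle regulator, a folate enzyme, a pair of clock genes and the receptor that duloxetine's transmitter acts on. Ccng2, which encodes the cyclin G2 that restrains the cell cycle, had the smallest p of all genes. It was at 697 to 809.5 normalized counts (median 729.6) in the R. flavefaciens mice and at 538.5 to 652.4 (median 582.4) with both treatments, so the groups did not overlap (log2 fold change −0.32, SE 0.05, limma adjusted p = 0.00483). Mthfd1l, a mitochondrial enzyme of folate metabolism, was at 288.5 to 320.2 (median 308.2) and fell to 218.1 to 245.4 (median 230.2), again with no overlap (log2 fold change −0.40, SE 0.06, adjusted p = 0.0062). Other DEGs of this set were Coq10b, a coenzyme Q binding protein (log2 fold change −0.38), Otud1, a deubiquitinase (−0.40), Spry2, an inhibitor of receptor tyrosine kinase signalling (−0.31), Pias4, a SUMO ligase (−0.31), and Ctsl, the lysosomal protease cathepsin L (−0.22). The set was completed by Rhobtb2 (−0.29), Fam207a (−0.39), Tm2d2 (−0.24), Ccdc184 (−0.35) and Aimp2 (−0.34), a scaffold of the aminoacyl-tRNA synthetase complex.

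On the higher side the largest change was that of Gm29237, at 5.09 to 13.71 normalized counts (median 7.81) against 16.45 to 32.92 (median 19.99), with a log2 fold change of 1.28 (SE 0.24, limma adjusted p = 0.00943). These are few reads per mouse, although the groups did not overlap. Col15a1, which encodes a basement membrane collagen, rose: it was at 25.17 to 40.08 (median 31.87) in the R. flavefaciens mice and at 57.28 to 77.46 (median 62.68) with both treatments (log2 fold change 0.99, SE 0.18, adjusted p = 0.00837). Cmah, the enzyme that makes N-glycolylneuraminic acid, was at 94.63 to 122.35 (median 103.1) and 127.4 to 158.7 (median 145.4), a log2 fold change of 0.45. Neither gene overlapped between the groups. Further DEGs were the flippase gene Atp11b (0.48), the kinase anchoring protein gene Akap13 (0.42), Znrf3, a ubiquitin ligase that removes Wnt receptors (0.30), the splicing-related genes Zranb2 (0.23) and Gpatch8 (0.30), Fam135a (0.39) and Cntnap5c (0.70). The others of the 15 were 5930430L01Rik (0.71), AC165273.1 (0.72), D930048N14Rik (0.78), 4632404H12Rik (0.33) and AC165080.4 (0.54). Of 1309 genes tested that do not code for protein, 24 were higher (1.83%, beside 1.07% of all genes) and 0 lower (beside 1.16%). Of these, 406 were lincRNAs, of which 7 were higher (1.72%) and 0 lower. The difference from other genes was not tested.

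**Figure D2:**
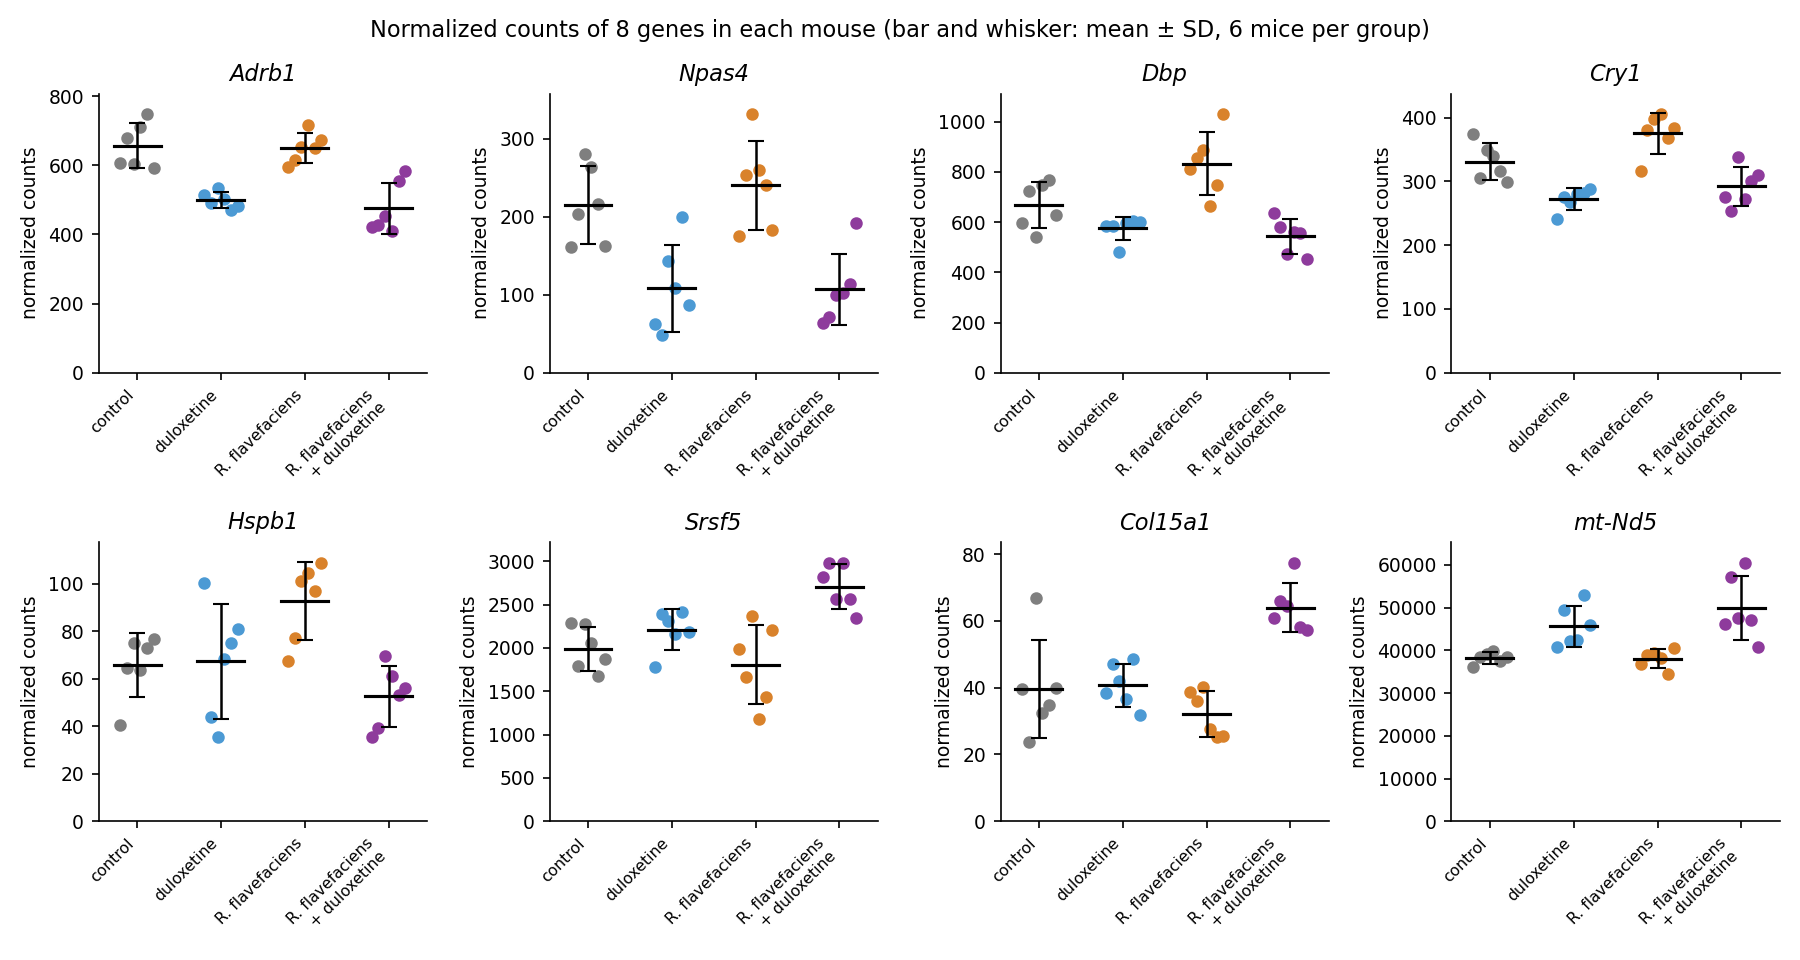
Normalized counts per mouse of genes named here, 1 point per mouse with a bar and whisker at the group mean ± SD (linear axis from 0), for all 4 groups of 6 mice. The Adrb1, Dbp, Col15a1 and mt-Nd5 values of the mice given both treatments lie wholly on one side of those of the R. flavefaciens mice, while Npas4 has 1 mouse within their range.

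Of 8 adrenergic receptor genes tested, 2 were DEGs (25%, beside 2.23% of all genes), both lower, with a median log2 fold change of −0.14 over the 8 (all genes: 0.00). Adrb1, the beta-1 receptor (chr19:56722372-56724862 on the + strand of GRCm38), was at 595.1 to 715.8 normalized counts (median 651.6) in the R. flavefaciens mice and at 410.5 to 583.5 (median 441) with both treatments. Every mouse of the combined group was below every R. flavefaciens mouse, and the log2 fold change was −0.46 (SE 0.08, limma adjusted p = 0.007). Adra2c, one of the alpha-2 receptors that restrain transmitter release, was at 343.6 to 436.5 (median 371.4) and fell to 219.5 to 354.1 (median 307.3), with a log2 fold change of −0.37 (SE 0.10, adjusted p = 0.0385) and some overlap. Adra1a had the opposite sign but missed the threshold (log2 fold change 0.55, SE 0.18, adjusted p = 0.0985): R. flavefaciens mice spread from 86.49 to 305.7 (median 247.4) and mice given both treatments from 267.2 to 332.7 (median 316.6). Among the remaining members the log2 fold changes were −0.31 for Adra1d, −0.18 for Adra2a, −0.06 for Adra1b and 0.30 for Adrb3, none past the threshold. Adrb1 passed with any one of the 12 mice left out, while Adra2c did not pass without mouse 7_2, 9_1, 9_3, 10_2, 11_3 or 12_2, without 8_4 and 9_3 together, under 75th percentile scaling or with the GC trend removed.

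In mice without the bacterium Adrb1 was also lower with duloxetine, at 499.3 ± 22.9 normalized counts (SD, n = 6) against 656.4 ± 65.2 in controls. Its log2 fold change there was −0.39 (SE 0.08; unadjusted p = 3.1e-05, limma adjusted p = 0.464 over all genes). In limma the interaction, which is the difference between these log2 fold changes, was −0.07 (SE 0.11, adjusted p = 0.873). Adra2c had −0.09 in that comparison and Adra1a −0.06.

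None of the other monoamine lists held a DEG. All 11 serotonin receptor genes tested missed the threshold, the nearest being Htr3a, the subunit of the serotonin-gated ion channel, at 78.3 ± 10.9 (SD, n = 6) and 59.9 ± 9.17 normalized counts (log2 fold change −0.38, limma adjusted p = 0.0576). The other serotonin receptors ran from −0.58 for Htr5b (adjusted p = 0.225) to 0.43 for Htr1f (adjusted p = 0.131), with Htr1a at 0.08, Htr1b at −0.27, Htr2a at 0.22, Htr2c at −0.17, Htr4 at 0.20, Htr5a at 0.00, Htr6 at 0.17 and Htr7 at −0.14. For the dopamine receptors Drd1, Drd2 and Drd5 the log2 fold changes were 0.17, −0.40 and −0.04, on levels that differed much between mice. Among genes of monoamine transport, synthesis and breakdown, the vesicular transporter Slc18a2 was at −0.20, Maoa at 0.16, Maob at 0.07, Ddc at −0.46, Th at 0.25, Slc22a3 at −0.18 and Slc29a4 at 0.08. The reuptake transporter genes Slc6a4 and Slc6a2 that duloxetine blocks were not in the table, nor were Slc6a3, Tph2 and Dbh. Of 33 genes of cAMP signalling and 11 of receptor desensitization, 0 were DEGs in limma, with Pde4b (0.15, adjusted p = 0.099) and Rgs2 (−0.23, adjusted p = 0.113) the nearest.

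Immediate early genes had negative log2 fold changes in 22 of 23 members tested, and 4 (17.4%, beside 2.23% of all genes) were DEGs, all lower. The median was −0.35, the most negative of the lists described here. Npas4, an activity-dependent transcription factor of neurons, was at 175.1 to 331.2 normalized counts (median 246.4) in the R. flavefaciens mice and at 63.7 to 191.3 (median 101.2) with both treatments, and 5 of 6 mice were below all of the other group (log2 fold change −1.22, SE 0.27, limma adjusted p = 0.018). Egr4 fell from 807.8 to 1120 (median 894.2) to 330.7 to 952.4 (median 625.4), a log2 fold change of −0.66 (adjusted p = 0.033). For Junb, an AP-1 subunit, the values were 1028 to 1438 (median 1353) and 655.7 to 1205 (median 814.9), a log2 fold change of −0.59 (adjusted p = 0.0356). Nr4a1, an orphan nuclear receptor, was at 1257 to 2332 (median 1690) and 781.2 to 1704 (median 1047), a log2 fold change of −0.66 (adjusted p = 0.0489). The ranges of all 4 overlapped between the groups. Arc (−0.80, adjusted p = 0.137), Fos (−0.67, adjusted p = 0.104) and Egr1 (−0.61, adjusted p = 0.0606) had fold changes of like size without passing, and Klf10 alone had a positive value (0.18).

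Mouse 12_4 differed from the rest of the combined group in these genes. Expressed as the mean log2 deviation of the 23 genes from their means over all 24 mice, it was at 0.32, while the other mice of the combined group lay between −0.72 and −0.05. The R. flavefaciens mice lay between −0.07 and 0.53. Without mouse 12_4 the DEGs of the list numbered 11 instead of 4 and the median was −0.46. There were 0 without mouse 11_3, 1 without 9_1, 9_3, 10_2 or 11_4, 2 without 8_3, 12_2 or 12_3, and 3 without 8_4. Removing the GC trend from each mouse also left 1 (6 with the length trend removed), as did leaving out 8_4 and 11_4 together. The median stayed negative whichever of the 12 mice was left out, from −0.46 to −0.21.

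Genes that feed back on the ERK pathway gave 1 DEG of 19 (5.26%, beside 2.23% of all genes), Spry2, at 863.4 to 1030 normalized counts (median 932.6) and 664.5 to 868.2 (median 763.7). The ranges met only at their edge. The median of that list was −0.09, and the phosphatase gene Dusp4 had −0.49 (adjusted p = 0.0997). Without mouse 12_4 the list held 5 DEGs and without mouse 8_3 2. Its median shrank to −0.02 without mouse 9_1 and was −0.18 without 8_4 and 9_3 together. Of 10 genes of neurotrophin signalling and 17 glucocorticoid targets, 0 were DEGs. The glucocorticoid target Ddit4 was at 404.1 ± 77.1 (SD, n = 6) and 542.4 ± 92.9 (limma adjusted p = 0.102).

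In limma fitted to all 4 groups, clock genes had the highest share of DEGs among lists with more than 10 members. It was 5 of 19 (26.3%, beside 2.23% of all genes), all lower, with a median log2 fold change of −0.19. That rank depended on the setting: DESeq2 called 6 clock genes and 11 of 29 chaperone genes. Dbp, a transcription factor driven by the clock (chr7:45705088-45710203, + strand), was at 663.6 to 1030 normalized counts (median 833.7) and fell to 451.4 to 637.9 (median 559.6), with no overlap (log2 fold change −0.61, SE 0.10, limma adjusted p = 0.0062). Tef, its relative in the same family, was at 5700 to 6650 (median 6473) and 4786 to 5565 (median 5420), also with no overlap (−0.25, adjusted p = 0.00943). Cry1, a repressor of the loop, was at 315.8 to 405.2 (median 382.2) and 254 to 338.2 (median 288.2), a log2 fold change of −0.36 (adjusted p = 0.0152). The ranges of Cry1 overlapped. Per2, another repressor, was at 858.8 to 1369 (median 1172) and 486.2 to 956.3 (median 855.4), a log2 fold change of −0.51 (adjusted p = 0.0344). Cry2 fell by less, from 2262 to 2624 (median 2360) to 1965 to 2375 (median 2041), a log2 fold change of −0.19 (adjusted p = 0.0398). Per1, Ciart and Bhlhe41 missed the threshold at −0.31, −0.41 and −0.18, Nr1d1 was at −0.10, and the activator genes Arntl, Clock and Npas2 were at 0.06, 0.16 and 0.03. The DEGs were repressors (Cry1, Cry2, Per2) and outputs (Dbp, Tef) of the loop, but the repressor gene Per1 did not pass. A difference from the activator genes was not tested.

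The 5 clock calls were counted again without the mice that stood apart: 5 without mouse 8_4, 5 without 9_3, 4 without 11_4 and 7 without 12_4. There were 2 without mouse 11_3 and 3 without 8_3, 9_1, 9_2, 10_2 or 12_2 or without 8_4 and 11_4 together, and Dbp and Tef passed with any one of the 12 mice left out. In the duloxetine against control comparison 17 of the 19 genes had negative log2 fold changes, with Cry1 at −0.28 (unadjusted p = 0.00076), Dbp at −0.21 (0.0448), Cry2 at −0.14 (0.00592), Tef at −0.09 (0.0747) and Per2 at −0.08 (0.516), and none passed adjustment in limma.

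The promoters of the clock DEGs are shown because these genes are the textbook case of E-box control and fell together. RefSeq windows of 300 bases (GRCm38.p6, 250 before to 50 after a transcript start, 5′ to 3′ on the gene's strand) existed for 4 of the 5 genes, and 3 of their 5 windows held the E-box letters CACGTG, which read alike on both strands. They are 1 window of Cry1 and both windows of Tef, with the E-box in capitals:
Cry1 (chr10:85185005-85185304, minus strand): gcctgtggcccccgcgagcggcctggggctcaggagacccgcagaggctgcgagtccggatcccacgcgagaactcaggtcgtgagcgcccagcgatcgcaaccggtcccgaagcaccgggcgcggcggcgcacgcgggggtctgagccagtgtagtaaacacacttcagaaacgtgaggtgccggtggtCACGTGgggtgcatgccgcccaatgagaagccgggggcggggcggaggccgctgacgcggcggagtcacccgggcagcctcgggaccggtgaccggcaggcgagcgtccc
Tef (chr15:81802423-81802722, plus strand): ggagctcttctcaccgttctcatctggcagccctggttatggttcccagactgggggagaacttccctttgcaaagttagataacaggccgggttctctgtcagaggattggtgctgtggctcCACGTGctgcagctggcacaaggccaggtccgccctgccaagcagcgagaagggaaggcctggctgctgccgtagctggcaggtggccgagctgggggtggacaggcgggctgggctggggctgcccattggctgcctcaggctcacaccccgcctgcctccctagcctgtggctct
Tef (chr15:81811164-81811463, plus strand): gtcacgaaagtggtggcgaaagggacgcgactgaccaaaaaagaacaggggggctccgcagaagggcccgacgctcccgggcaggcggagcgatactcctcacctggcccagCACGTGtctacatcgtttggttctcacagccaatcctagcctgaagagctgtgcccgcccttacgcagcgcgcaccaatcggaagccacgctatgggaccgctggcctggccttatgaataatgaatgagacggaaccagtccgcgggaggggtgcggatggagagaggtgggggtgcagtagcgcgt
The single window each of Dbp and Cry2 did not hold these letters. Over all clock genes tested, 6 of 23 windows held them. Among the lower DEGs as a whole, 25 of 167 windows (15%) did, against 13 of 150 (8.67%) of the higher DEGs and 1371 of 14332 (9.57%) of the genes tested. The cAMP response element letters TGACGTCA were in 2.4% of lower, 2% of higher and 2.99% of all windows, the TATA box letters TATAAA in 9.58%, 6% and 7.4%, and the EGR site letters GCGTGGGCG in 0%, 3.33% and 1.1%, each read on both strands. A match describes the letters of a window, not a bound site.

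**Figure D3:**
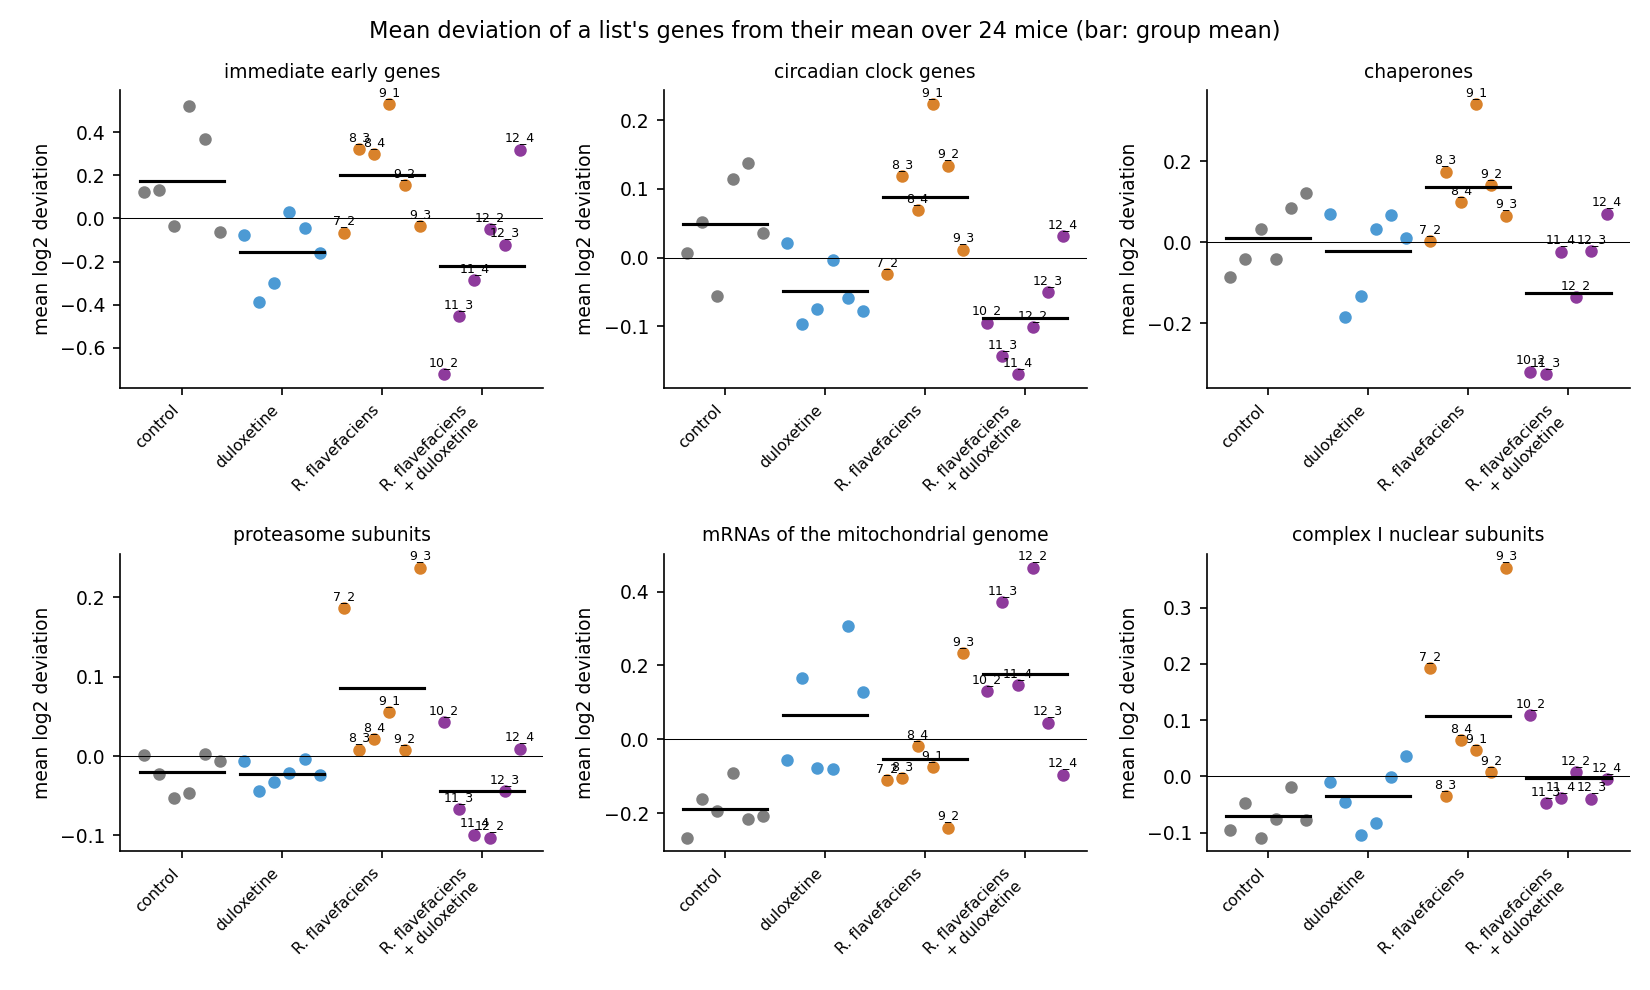
Mean log2 deviation of the genes of 6 lists from their means over 24 mice, 1 point per mouse with a bar at the group mean, for the 4 groups. Mouse 12_4 sits above the rest of the combined group in immediate early genes (0.32), and mouse 9_3 is the highest R. flavefaciens mouse in complex I genes (0.37) and proteasome subunits (0.24).

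Among 29 chaperone genes tested 6 were DEGs (20.7%, beside 2.23% of all genes), all lower. The log2 fold change was negative in 28 of the 29, with a median of −0.17, and 23 did not pass. They came from more than one compartment. Sdf2l1, a part of the endoplasmic reticulum chaperone complex, was at 178.4 to 276.1 normalized counts (median 238.4) and 110.3 to 178.6 (median 138.2), so the ranges only touched (log2 fold change −0.75, SE 0.16, limma adjusted p = 0.0171). Manf, a secreted factor of the same compartment, was at 633.8 to 853.9 (median 721.1) and 503.1 to 608.8 (median 569.6) with no overlap (−0.37, adjusted p = 0.0267). Pdia6, a disulfide isomerase, fell with them (−0.33, adjusted p = 0.0322). In the cytosol the Hsp70 partner Dnajb1 fell (−0.47, adjusted p = 0.0171), as did the small heat shock protein gene Hspb1, which went from 67.59 to 108.9 (median 99.02) to 35.6 to 69.76 (median 54.78; −0.82, adjusted p = 0.0361). Hspe1, the mitochondrial co-chaperonin, was at −0.25 (adjusted p = 0.0198). The list gave 0 DEGs without mouse 11_3, 3 without 9_1, 5 without 9_3, 7 without 11_4, 9 without 8_4 and 10 without 12_4. DESeq2 called 11 of its genes, and 10 passed in limma with the GC trend removed. In duloxetine against control its median was −0.02, with Sdf2l1 at −0.04 and Hspb1 at −0.02.

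Of 21 genes of the integrated stress response, 2 were DEGs (9.52%, beside 2.23% of all genes), both lower: Mthfd1l, given above, and Slc3a2, the heavy chain of amino acid transporters (−0.17, adjusted p = 0.0447). Atf4, the transcription factor of that response, was at −0.14 (adjusted p = 0.114). The list's median was −0.10, with 18 of 21 values negative.

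Proteasome subunits all had negative log2 fold changes, 31 of 31, with a narrow range from −0.23 to −0.03 and a median of −0.12. The 4 DEGs (12.9%, beside 2.23% of all genes) were the ATPase subunit genes Psmc3 (−0.21, limma adjusted p = 0.0171) and Psmc4 (−0.23, adjusted p = 0.0171), the core subunit gene Psmb4 (−0.23, adjusted p = 0.0344) and the regulatory subunit gene Psmd13 (−0.21, adjusted p = 0.0394). Psmc3 was at 1739 to 2042 normalized counts (median 1845) and 1499 to 1712 (median 1635), without overlap. Mouse 9_3 was the highest of the R. flavefaciens mice for this list, with a mean deviation of 0.24. Without it there were 2 DEGs and the median was −0.08. There were 0 without mouse 11_3, 2 without 7_2, 11_4, 12_2 or 12_3, 6 without 8_4 and 8 without 9_2. Scaling by quantiles or by the 75th percentile left 2, and DESeq2 called 7.

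The oxidative phosphorylation genes had opposite signs by genome. All 13 mRNAs of the mitochondrial genome had positive log2 fold changes, with a median of 0.22, and 2 (15.4%, beside 2.23% of all genes) were DEGs. The transcript mt-Nd5, a complex I subunit, was at 34410 to 40647 normalized counts (median 38540) in the R. flavefaciens mice and at 40873 to 60500 (median 47284) with both treatments. Its groups did not overlap (log2 fold change 0.38, SE 0.08, limma adjusted p = 0.0171). The transcript mt-Nd4l, another complex I subunit, was at 5485 to 6895 (median 6553) and 6987 to 10242 (median 8054), with a log2 fold change of 0.40 (adjusted p = 0.0171) and no overlap. The most abundant, mt-Co1, did not pass (0.17, adjusted p = 0.315). A share of recovered reads was taken over all genes named mt-, which are more than these 13 mRNAs. They made 4.88% ± 0.70 and 5.52% ± 0.78 (SD, n = 6 each, exact permutation test, p = 0.167). The share was 4.29% ± 0.19 in controls and 5.04% ± 0.60 with duloxetine alone. Mouse 9_3 was high for the list of mRNAs too: without it 4 transcripts were DEGs and the median was 0.28. There were also 4 without mouse 12_4, and 0 without 11_3. The list moved with the processing: the median was 0.09 (3 DEGs) under quantile normalization and 0.13 (1 DEG) with the GC trend removed, and 7 transcripts were DEGs with the length trend removed.

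Nuclear genes of the respiratory chain lay on the other side, each by a small amount and with 0 DEGs in limma at this threshold. Negative log2 fold changes were found for 34 of 36 complex I genes (median −0.11), 10 of 10 complex III genes (−0.12), 12 of 13 complex IV genes (−0.10) and 16 of 16 ATP synthase genes (−0.11). An unadjusted limma p under 0.05 was found for 14 of the complex I and 9 of the ATP synthase genes, beside 2944 of all 14974 genes tested. In complex III it was found for 3 genes and in complex IV for 1. DESeq2 called 2 complex I genes and 1 ATP synthase gene. In limma complex I held 2 DEGs with a minimum mean of 50 or without mouse 8_3 or 10_2 and 1 without 8_4, 9_2 or 12_4 or with the length trend removed, and ATP synthase held 1 with the GC trend removed or without 9_2 or 10_2. Nearest to the threshold in complex I were Ndufv1 (−0.17, adjusted p = 0.0548) and Ndufs7 (−0.26, adjusted p = 0.0548). Cytoplasmic ribosomal protein genes were negative in 46 of 46 members of the large subunit (median −0.06) and 29 of 32 of the small subunit (−0.09), again with 0 DEGs. Without mouse 9_3 the complex I median was −0.06, that of ATP synthase −0.07, and that of the large ribosomal subunit turned to 0.01. With the length trend removed from every mouse the medians were −0.09, −0.09 and −0.04. Leaving out single mice gave medians of −0.15 to −0.08 for complex III and −0.12 to −0.04 for complex IV. For the small ribosomal subunit they ran from −0.14 to −0.01. Under other settings, which include pairs of mice left out, the small subunit median reached 0.04 and that of complex IV −0.03. In duloxetine against control the medians were 0.04 for complex I, 0.03 for ATP synthase and 0.08 for the large ribosomal subunit. That of the mitochondrial mRNAs was 0.25, and all 13 were positive with unadjusted p under 0.05, beside 3.83% of all genes at that threshold.

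**Figure D4:**
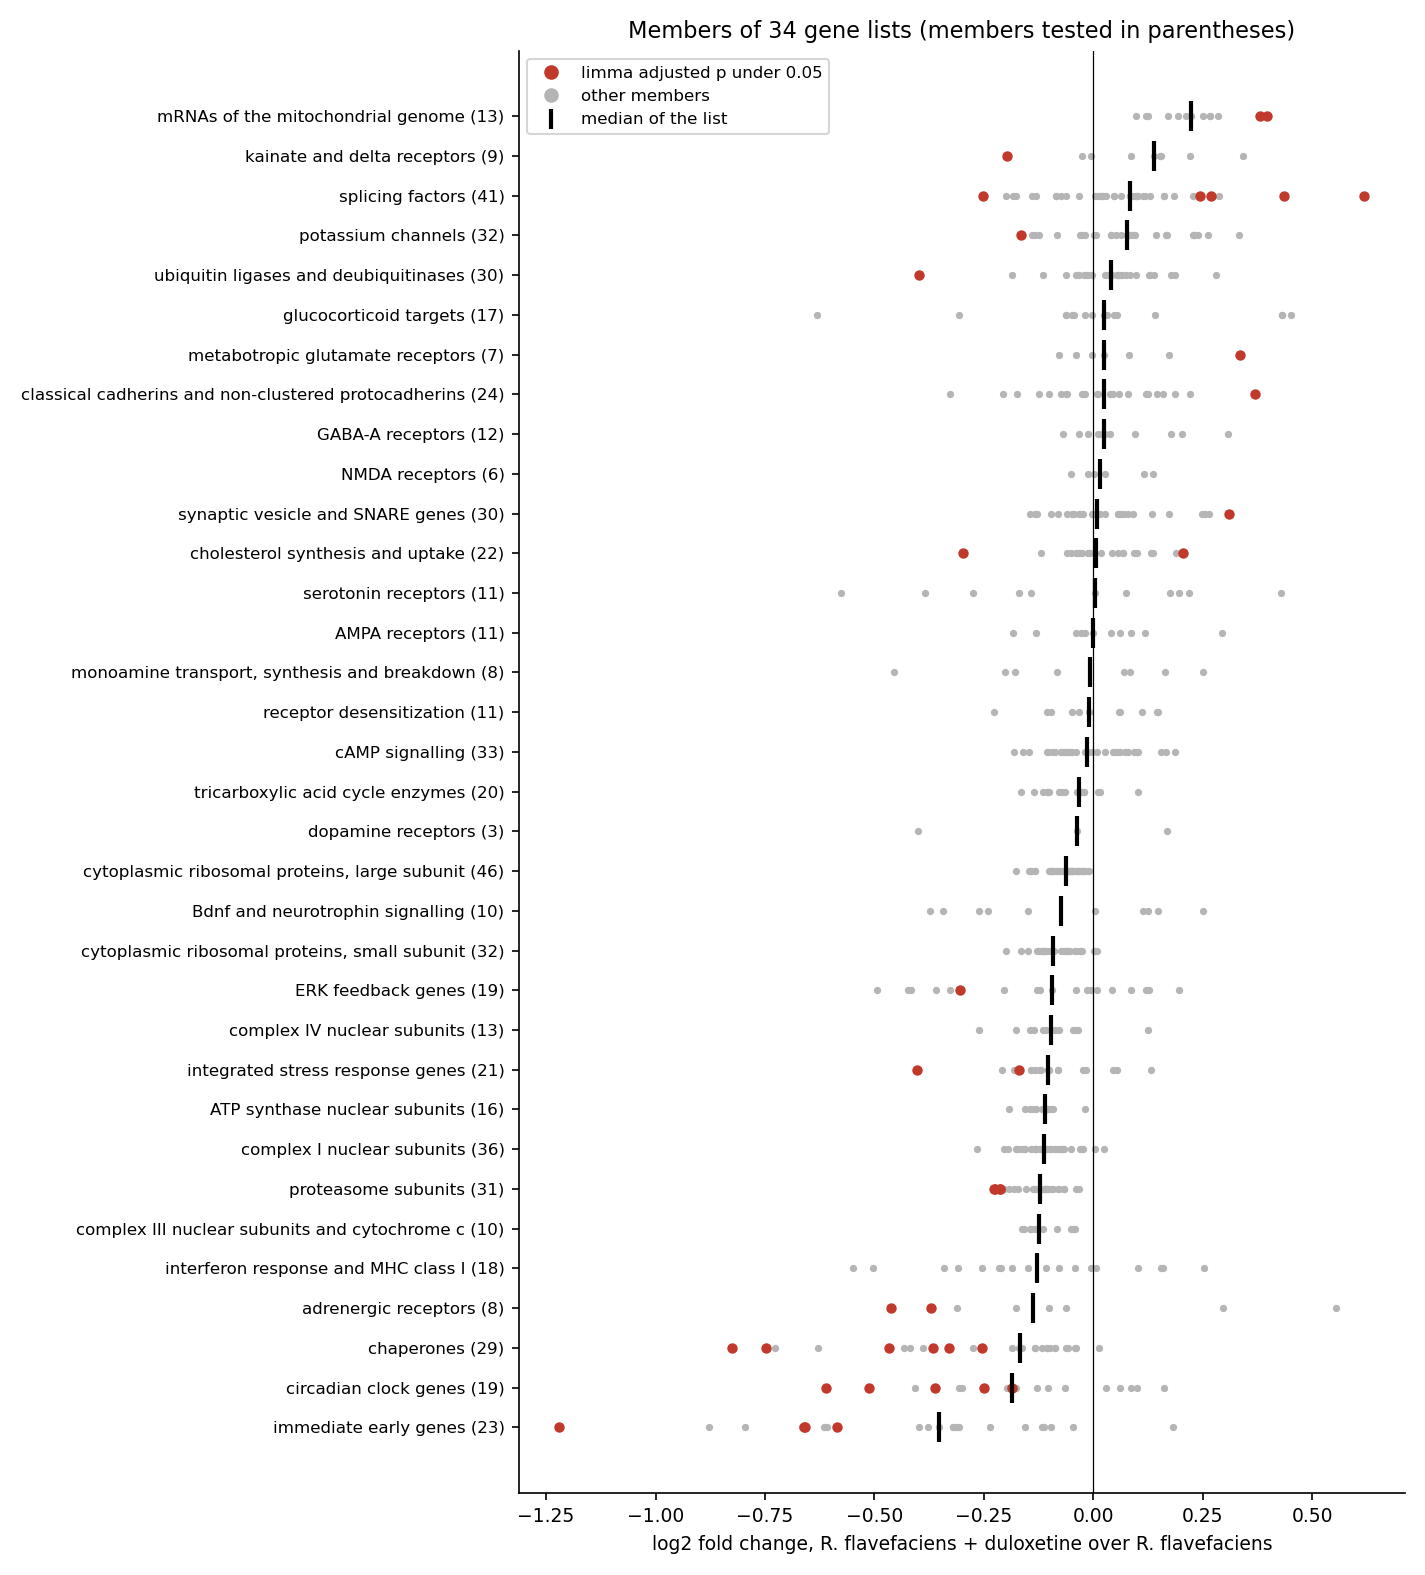
Log2 fold change (both treatments minus R. flavefaciens alone) of every tested gene of the lists shown, 1 point per gene, with DEGs marked by colour and the list median by a bar. Proteasome subunits lie wholly below 0, mRNAs of the mitochondrial genome wholly above it, and immediate early genes reach down to −1.22 (Npas4).

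Splicing factor genes were mixed but mostly positive: 30 of 41, with a median of 0.08. Of the 41, 4 were DEGs higher and 1 lower (12.2% in all, beside 2.23% of all genes). Srsf5, a serine and arginine rich splicing factor, was at 1185 to 2365 normalized counts (median 1827) and 2341 to 2984 (median 2692), so only the highest R. flavefaciens mouse reached the range of the other group (log2 fold change 0.62, SE 0.12, limma adjusted p = 0.0125). The other higher DEGs were Sf3b1, the core of the U2 particle (0.24, adjusted p = 0.0187), Srrm1 (0.27, adjusted p = 0.0412) and Pnisr (0.44, adjusted p = 0.0495), while Snrpb, a common protein of the spliceosomal particles, was lower (−0.25, adjusted p = 0.0171). With the trend on GC content removed from each mouse, the median was 0.00, with 2 DEGs higher and 4 lower, and with the length trend removed it was 0.03, with 3 higher and 2 lower. Higher DEGs numbered 9 without mouse 8_4, 3 without 9_3, 1 without 11_3, and 2 without 7_2, 9_1, 11_4, 12_2 or 12_3.

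DEGs as a whole followed transcript length and GC content. Higher DEGs had a median transcript length of 5002 bases and a GC content of 46.2%, lower DEGs 2581 bases and 54.9%, and all genes tested 3431 bases and 49.5%. Across genes, Spearman's rho of the log2 fold change with length was 0.257 and with GC content −0.238, and in duloxetine against control the rho with length was −0.183. Genes are not independent replicates, so no p is attached. With the length trend removed there were 414 DEGs, 129 higher and 285 lower, of which 268 were shared with the 334. With the GC trend removed there were 334, 118 higher and 216 lower, sharing 219. With both removed there were 271, 85 higher and 186 lower, sharing 174.

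Over 11 AMPA receptor, 6 NMDA receptor and 12 GABA-A receptor genes, 0 were DEGs. The receptor genes Gria1 (−0.02), Gria2 (0.06), Grin2a (0.14) and Grin2b (0.12) were far from the threshold, at limma adjusted p from 0.484 to 0.879. In other lists of the synapse and membrane single genes passed, beside 2.23% of all genes. Grm3, a metabotropic glutamate receptor gene, was the 1 DEG of 7 in its list (0.33, adjusted p = 0.0493), and Grik5, a kainate receptor subunit gene, the 1 of 9 (−0.20, adjusted p = 0.0414). Unc13a, which primes synaptic vesicles, was the 1 of 30 synaptic vesicle genes (0.31, adjusted p = 0.0202), at 4654 to 6834 normalized counts (median 5860) and 6462 to 7567 (median 7311). Kcnj9, a G protein gated potassium channel gene, was the 1 of 32 (−0.17, adjusted p = 0.0415), and the protocadherin gene Pcdh15 the 1 of 24 (0.37, adjusted p = 0.0294), without overlap between groups. In cholesterol synthesis and uptake 1 gene was higher, Insig1 (0.20, adjusted p = 0.0361), and 1 lower, Ebp (−0.30, adjusted p = 0.0313), of 22. Of 18 interferon and MHC class I genes, 0 were DEGs.

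Of the other genes that the study names for the mPFC, Dpysl2, a microtubule binding protein gene, was at 3871 to 4708 normalized counts (median 4484) and 3803 to 4315 (median 4088), which missed the threshold (−0.10, limma adjusted p = 0.264). Prkacb (0.00), Dync1h1 (0.01) and Uso1 (−0.02) also missed it.

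Of the 12 cell type marker lists, 11 had 0 DEGs, and the list of 8 meningeal and fibroblast markers had 1, Col15a1. With 2.23% of all genes called, such counts in lists of 3 to 12 genes are near the background. None of the 7 other meningeal markers passed, and 6 of them had negative log2 fold changes (Igf2 was at 0.04): Lum was at 45.2 ± 16.3 (SD, n = 6) and 23.9 ± 12.2 (log2 fold change −0.95, limma adjusted p = 0.117) and Dcn at −0.51 (adjusted p = 0.228), and the list summed to 784.8 to 1303 and 679.3 to 948.5 normalized counts, with Col1a2 the most abundant. Astrocyte markers, led by Slc1a2, summed to 60129 to 77638 and 67306 to 93885, and microglial markers, led by Csf1r, to 5040 to 6349 and 4735 to 6983. Endothelial and pericyte markers, led by Rgs5, summed to 6145 to 7128 and 5696 to 8561. In that list 10 of 12 log2 fold changes were positive, with 0 DEGs and a median of 0.10 (0.04 to 0.15 with single mice left out). An unadjusted limma p under 0.05 was found for 4 of the 12, beside 2944 of all 14974 genes tested. These 4 were Kcnj8 (0.48), Rgs5 (0.25), Tek (0.25) and Cldn5 (−0.33). The sums of these lists overlapped between the groups, and the part of vessel cells in the Col15a1 result was not tested.

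In mice without the bacterium the same drug gave 0 DEGs in limma (smallest adjusted p = 0.464), with 573 genes at an unadjusted p under 0.05 (3.83%). Fitted to those 12 mice alone, limma also called 0, with 1052 genes at an unadjusted p under 0.05 and a smallest adjusted p of 0.0502. DESeq2 on recovered reads gave 1 DEG, Adrb1, and edgeR 0. A count of 334 beside a count of 0 does not show that the effects differ, so the difference itself was tested. The interaction of the treatments gave 0 DEGs in limma (smallest adjusted p = 0.639), 0 in DESeq2 and 0 in edgeR, with 1128 genes at an unadjusted limma p under 0.05 (7.53%). The smallest unadjusted p of the interaction belonged to Znrf3 on the positive side (log2 fold change 0.30 with the bacterium and −0.08 without) and to Ccng2 on the negative side (−0.32 and −0.04).

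The comparisons with and without the bacterium share no mouse, and their values can be set side by side. Of the 334 DEGs, 283 (84.7%) had the same sign in duloxetine against control, 135 of 160 higher and 148 of 174 lower, while 55% of the 14640 other genes tested did. Of them, 44 had an unadjusted p under 0.05 there with the same sign and 0 with the opposite sign. On the other side, 215 of the 334 (64.4%) had an unadjusted interaction p under 0.05 in limma, beside 7.53% of all genes, a share that choosing genes on a contrast within the interaction itself raises. The sizes were smaller: the median log2 fold change of the higher DEGs was 0.41 with the bacterium and 0.08 without, and that of the lower DEGs −0.25 and −0.06. The DEGs were chosen on the first of these values, which by itself tends to make the first larger. Examples of the log2 fold change with and without the bacterium were Adrb1 (−0.46 and −0.39), Npas4 (−1.22 and −1.11), Nr4a1 (−0.66 and −0.61), Junb (−0.59 and −0.47), Spry2 (−0.31 and −0.23), Cry1 (−0.36 and −0.28), Mthfd1l (−0.40 and −0.20), Dbp (−0.61 and −0.21), Srsf5 (0.62 and 0.15), Col15a1 (0.99 and 0.10), Sdf2l1 (−0.75 and −0.04), Hspb1 (−0.82 and −0.02) and Gm29237 (1.28 and −0.24). None of these interactions passed adjustment.

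**Figure D5:**
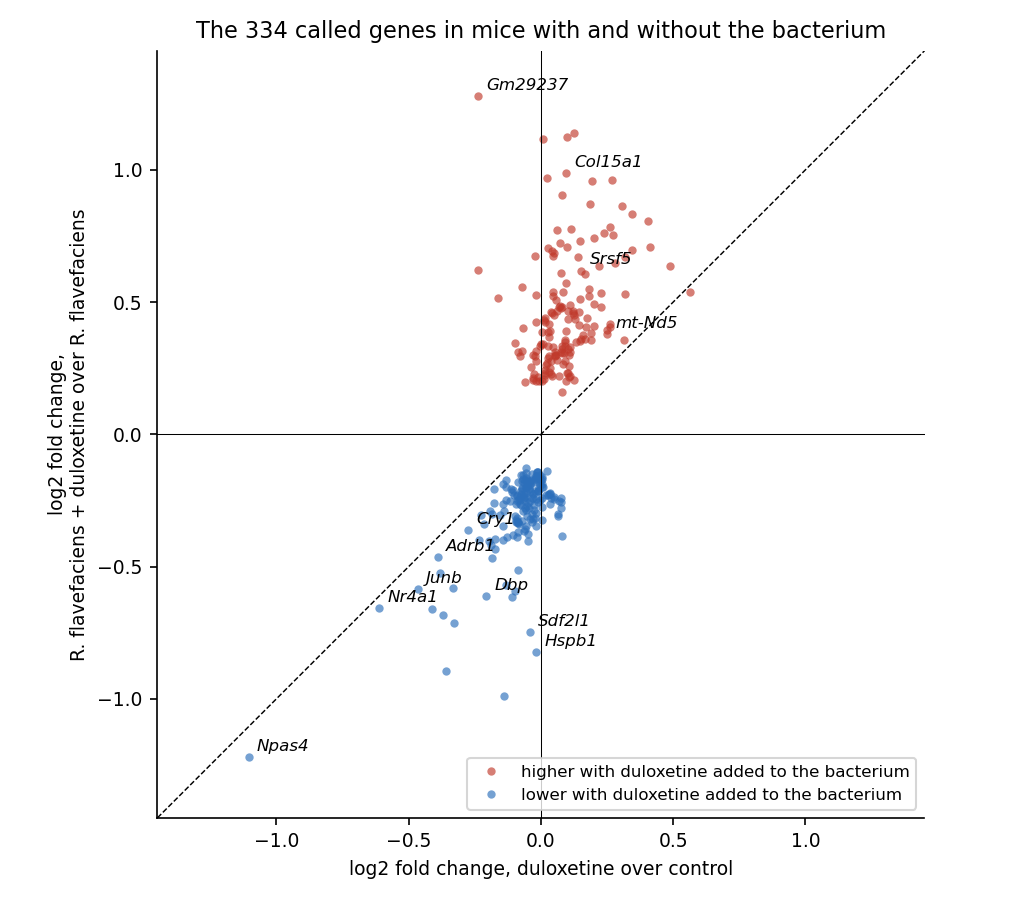
Log2 fold change of the 334 DEGs with duloxetine added to R. flavefaciens (y axis, both treatments over R. flavefaciens) against that of duloxetine alone over control (x axis), 1 point per gene, with a dashed line where both are equal. Adrb1 (−0.39 on x, −0.46 on y) and Npas4 (−1.11, −1.22) lie near that line, and Gm29237 (−0.24, 1.28) has opposite signs.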

How the data were processed

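The deposited table holds normalized counts, which the authors made by aligning reads to the mouse genome with TopHat2 (version 2.1.0 with Bowtie2 2.2.6, per the labels), counting them per gene and dividing by DESeq2 (1.18.1) size factors. The methods name GRCm38 and the processing notes mm9; gene positions in the table are those of GRCm38. The counter, its strand setting and any low filter are not given in the sources used here, so overlapping genes and near-identical copies remain uncertain. The deposited signal is 15456 genes in 24 mice, with column sums of 13536601 to 14568453. Values were whole multiples of a step per mouse (0.883 to 1.108) for 99.997% of 370875 nonzero values within a tolerance of 0.0051, which recovered whole reads and depth.

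Genes with a mean of at least 10 (14974) were tested on log2(value + 1) with limma 3.58.1 (R 4.3.3), trended variance, all 4 groups in 1 fit, Benjamini-Hochberg adjustment and a threshold of 0.05. A fold change on this scale understates the change of low genes. A count test on the recovered reads was run as an alternative: DESeq2 1.42.0 called 610 genes and edgeR 4.0.16 called 327. Each mouse was taken as 1 replicate. The scripts were tested on simulated data. Lengths and GC content came from GENCODE vM21, and promoters from RefSeq. Named genes were up to 15 DEGs per direction with the smallest p, all monoamine receptor and metabolism genes tested, up to 4 DEGs (or the nearest genes) per list, the extreme interactions and genes the study names. A few genes of this rule are not reported here. The comparison and the 46 gene lists were chosen with earlier results of these data known.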

Additional observations from a re-analysis of the deposited data

Results flagged for a closer look

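Of 94 groups of 6 mice examined (the 30 DEGs with the smallest p, 12 marker sums, the summed mitochondrial mRNAs, and 4 measures of the library, in each of the groups compared), 8 held a mouse farther from the others than Dixon's 95% criterion allows, and chance flags about 1 in 20. Mouse 8_4, given R. flavefaciens alone, had summed normalized counts of 8487.3 for striatum markers (other mice 2700.6 to 3849.7), 830.06 for choroid plexus and ependyma markers (35.46 to 125.16) and 988.27 for blood markers (417.76 to 626.81). Mouse 11_4, given both treatments, had 5330.5 for striatum markers (2796.1 to 3366.6). For blood markers, mice 11_3 (1089.78) and 12_2 (1062.18) of that group were above mouse 8_4 but were not flagged. The other mice given both treatments had 275.4 to 478.57. Mouse 9_3, given R. flavefaciens alone, had 1286.2 normalized counts of Ctsl (1080.5 to 1131.9) and 383.62 of Ccdc184 (319.42 to 339.08). Among mice given both treatments, 12_3 had 49.36 of 5930430L01Rik (60.19 to 63.57) and 12_4 had 4786.3 of Tef (5299.1 to 5564.6). The mice of these 4 gene values lay toward the other group for 5930430L01Rik and away from it for Tef, Ctsl and Ccdc184.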

How the results depend on the processing

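The count of DEGs between the combined group and R. flavefaciens alone (334) stayed within 1.5 times under the other pseudocounts, low-value filters, scalings and trend removals, at 271 to 414. It was 610 with DESeq2 and 842 at an adjusted p under 0.1. On the 12 mice alone it was 220 with DESeq2 and 0 with limma. Genes at an unadjusted limma p under 0.05 fell from 2944 to 1998 in that fit. For duloxetine against control, fitted to its own 12 mice, they rose from 573 to 1052. The parts of sample number and of unequal spread between groups were not tested. The share of higher DEGs was 47.9%, and 65.7% after scaling to the 75th percentile (203 higher, 106 lower), 31.2% without the length trend and 35.3% without the GC trend. The median of all genes moved by at most 0.03 on the log2 scale under these settings. With the same first label number as a random block there were 533 DEGs (consensus correlation −0.0451). A negative correlation narrows the SE of a comparison between blocks, so the larger count does not strengthen the result. No number is shared between groups, so no paired analysis was possible because no pairs exist. Leaving out each of the 24 mice in turn gave 47 to 577 DEGs, for duloxetine against control 0 to 0, and for the interaction 0 to 0. Leaving out mice 8_4 and 11_4 gave 349, and mice 8_4 and 9_3 461. Duloxetine against control gave 1 DEG with DESeq2 and 0 with each other setting run for it, and the interaction 0 with each setting run for it (DESeq2 on the groups compared alone was run for neither, and limma on them alone not for the interaction). The trend on GC content, DESeq2 on 12 mice and the pairs of mice left out were chosen after seeing the data. The 30 DEGs with the smallest p kept their direction under each setting and passed with each of the 12 mice compared left out, but none passed in limma on the 12 mice alone (adjusted p 0.0614 to 0.123), and AC165080.4 and Aimp2 each missed 1 other setting. List medians moved by more than the SD of the list's mean deviation between mice in 9 of 1701 cases. These cases include leaving out control or duloxetine mice, which cannot change the medians of this comparison. A median can also change sign within that SD, so the count does not show that the medians are stable. Few reads limit the precision of Gm29237.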
